A study of Mus musculus with 12 samples.

Results

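The baseline described here is that of wild-type (WT) neurons given vehicle only. It comprises 3 of the 12 libraries of the series, chosen by the label WT vehicle. The neurons were differentiated in culture from mouse embryonic stem cells after a protocol published by Bibel and colleagues, kept for 21 days in vitro and exposed to water for 2 h before RNA was taken. Each library came from 1 of 3 WT cell lines, which the labels number 1 to 3 and group under the name Daam1-MIC_WT. Whether the lines are clones, and whether a line was grown in more than 1 culture, is not given in the sources used here, so the spread reported between lines may be technical in part. The only other libraries used are those of the same 3 WT lines given 10 µM Y-27632, which blocks the kinase ROCK, over the same 2 h. They serve as a second library of each line, and no effect of the inhibitor is read from them. The short text on the series speaks of hippocampus dissected from adult mice, whereas every sample label describes cultured glutamatergic neurons, and the sample labels were followed. Poly(A)-selected RNA was sequenced from strand-specific libraries.

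Neurons are told apart by the transmitter they package, by the position along the body axis at which their progenitors were patterned, and by how far they have matured. Glutamate is loaded into vesicles by the vesicular glutamate transporters, and GABA and glycine share the vesicular transporter encoded by Slc32a1. Position along the axis is written in transcription factor genes: Emx1, Emx2 and Otx2 are active towards the front of the brain, and the Hox clusters mark the hindbrain and spinal cord, with successive genes of a cluster switched on further towards the tail. Retinoic acid, used in protocols of this kind to drive neural differentiation, is known to activate Hox genes.

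Levels are given in cRPKM, the authors' corrected form of RPKM, reads scaled by gene length and by library size, so that genes can be compared per length. A gene was called expressed at a mean of at least 1 cRPKM. Of 33560 genes with a value, 12616 were expressed (37.6%), 6373 reached 10 cRPKM and 561 reached 100 cRPKM. The median was 10.2 cRPKM over the expressed genes and 0.10 cRPKM over all genes. Of 20683 protein-coding genes, 11898 were expressed, a larger share, and the median over those 20683 was 2.63 cRPKM. The 37.6% set beside lists below includes noncoding genes, so a list can pass it without passing the protein-coding share. The libraries held 28388788, 26487028 and 30080749 counts (lines 1, 2 and 3), so that a gene with 3 counts stood at about 0.1 CPM (counts scaled to the library total). Daam1, which gives the lines their name and encodes a formin that assembles actin filaments, was at 28.5, 25.01 and 31.3 cRPKM in lines 1, 2 and 3. No WT library stood apart in it.

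The library labelled line 2 vehicle stood apart from the other 2 in many other genes. Across 12292 expressed genes with at least 50 counts, Pearson's r of log2(cRPKM + 0.1) was 0.989 between lines 1 and 3, 0.926 between lines 1 and 2 and 0.892 between lines 2 and 3. Genes are not independent replicates, and these values describe the libraries. The same line 2 library correlated at 0.978 with the inhibitor library labelled line 3 and at 0.949 with the inhibitor library of its own line. Line 1 correlated at 0.993 with its own inhibitor library and line 3 at 0.917. From these libraries a difference between lines, between cultures and in labelling cannot be told apart. Each library's value is therefore given for the genes described below, in the order line 1, line 2, line 3. In bulk RNA, fewer cells of a type and less RNA per cell cannot be told apart.

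Neuronal genes were high in every library. Tubb3, the beta-tubulin of neurons, was at 377, 352 and 376 cRPKM, and differed little between the lines. Map2, a microtubule protein of dendrites, was at 97.1, 64.2 and 118 cRPKM, lowest in line 2. All 12 pan-neuronal markers were expressed (beside 37.6% of all genes), with a median of 129 cRPKM. Their highest members were Nefl (539, 481 and 540 cRPKM), a neurofilament subunit, Snap25 (540, 321 and 587 cRPKM), a protein of vesicle fusion, and Stmn2 (479, 365 and 508 cRPKM), a regulator of microtubules in axons. Summed over the list, the markers came to 2794, 2231 and 2936 cRPKM, lowest in line 2.

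Mitochondrial genes took the first 14 places of the ranking. They held 16.2%, 15.9% and 14.997% of the counts and 34.8%, 34.3% and 33.9% of the summed cRPKM. The first was mt-Co1, a subunit of cytochrome c oxidase, at 34056, 34275 and 29781 cRPKM, followed by mt-Atp6, mt-Co3, mt-Co2, mt-Cytb, mt-Nd4, mt-Nd1, mt-Nd2, mt-Atp8, mt-Nd5, mt-Nd4l, mt-Rnr1, mt-Rnr2 and mt-Nd3. The other 6 of the first 20 were nuclear genes. Rplp1, a ribosomal protein, was at 2274, 2583 and 1633 cRPKM. Eef1a1, a translation elongation factor, was at 1471, 2072 and 1226 cRPKM, also highest in line 2. Tuba1a, the alpha-tubulin of young neurons, was at 1359, 1222 and 1297 cRPKM. Actg1 (cytoplasmic actin) had a mean of 1199 cRPKM, Hspa8 (a chaperone) 1032 cRPKM and Nap1l5 (a nucleosome assembly protein family member) 1002 cRPKM.

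The rank of a gene depends on the length by which its reads were divided. That length, worked back from count and cRPKM, was a median of 68.8% of the annotated exon length over 12581 genes. It was under 25% of that length in 731 genes. For Rplp1 it was 40 of 499 bases, and Rplp1 and its relatives also have near-identical copies elsewhere in the genome, so that their ranks are uncertain. For Slc32a1, mt-Co1 and Hoxb13 it was 49 bases short of the annotated exons, the case for 776 genes.

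Glutamatergic and inhibitory transmitter genes were expressed side by side. Slc17a6 (chr7:51622006-51671119, plus strand, GRCm38), the vesicular glutamate transporter VGLUT2, was at 70.1, 59.2 and 93.6 cRPKM (74.3 ± 17.6, SD, n = 3). Gad1 (chr2:70553072-70602014, plus strand), a glutamate decarboxylase that makes GABA, was at 56.4, 46.7 and 53.9 cRPKM (52.3 ± 5.05). Slc32a1 (chr2:158610767-158615748, plus strand), the vesicular transporter for GABA and glycine, was at 51.4, 52.3 and 45.3 cRPKM (49.7 ± 3.79). Slc17a6 lay above Gad1 and above Slc32a1 in each of the 3 libraries, by 1.42 ± 0.28 and 1.52 ± 0.49 times, while Gad1 and Slc32a1 changed places between libraries. Gad2, the second decarboxylase, was at 30.7, 25.2 and 30.2 cRPKM, below Gad1 in each library. These comparisons depend on the length used. By all annotated exons the means would be 56.2 cRPKM for Slc17a6, 22.6 for Gad1, 48.8 for Slc32a1 and 27.2 for Gad2, so that Gad1 would lie below Slc32a1 and below Gad2.

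The forebrain form of the glutamate transporter was nearly absent. Slc17a7 (VGLUT1), the form of cortical and hippocampal excitatory neurons, was at 0.37, 0.30 and 0.37 cRPKM, from 30, 23 and 32 counts. The mean of Slc17a6 was 214 times higher, a log2 ratio of 7.68 ± 0.23. Slc17a8 (VGLUT3) was at 0.96, 0.56 and 1.27 cRPKM. Against the labelled cell type, glutamatergic neurons, 1 of the 3 vesicular glutamate transporters was therefore expressed, beside all 5 GABA genes. Bulk RNA does not show whether Slc17a6 and Gad1 were in the same cells.

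Genes of glycine transmission were expressed too. Slc6a5, the neuronal glycine transporter GlyT2, which marks glycinergic neurons of the hindbrain and spinal cord, was at 21.5, 18.3 and 19.5 cRPKM (19.7 ± 1.60). Its 3 values lay close together. Slc6a9, the transporter GlyT1, was at 8.22, 8.44 and 10.3 cRPKM. Abat, which breaks GABA down, was at 97.0, 84.4 and 105 cRPKM, lowest in line 2. On the glutamate list, Slc1a1, a neuronal glutamate uptake carrier, was at 26.2, 26.0 and 31.6 cRPKM.

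Genes that make acetylcholine and monoamines stayed below 1 cRPKM in the mean. Ache, the esterase that removes acetylcholine and is not restricted to cholinergic cells, was at 83.5, 92.0 and 102 cRPKM. The genes that make and store acetylcholine were low: Chat was at 0.21, 0.05 and 0.15 cRPKM and Slc18a3, the vesicular transporter, at 1.10, 0.78 and 0.94 cRPKM. None of the 12 genes of monoamine transmission reached a mean of 1 cRPKM. Th, the first enzyme of catecholamine synthesis, had 6, 5 and 4 counts. Hdc, which makes histamine, was at 0.14, 2.40 and 0.20 cRPKM, and Slc6a2, the noradrenaline carrier, at 0.34, 2.02 and 0.37 cRPKM. Both passed 1 cRPKM in line 2 alone.

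**Figure D1:**
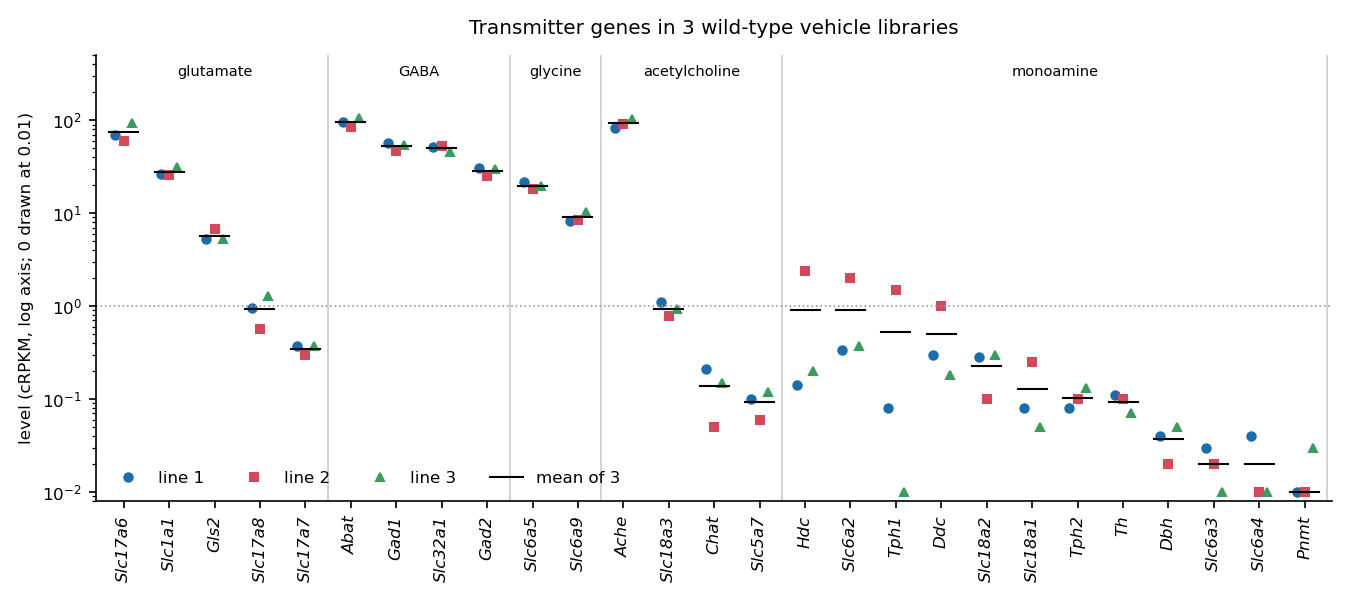
Levels of transmitter genes in the 3 WT vehicle libraries, with cRPKM on a log axis, 1 symbol per line, a black bar for the mean of 3 and values of 0 drawn at 0.01. Slc17a6, Gad1, Slc32a1 and Slc6a5 lie between 18.3 and 93.6 cRPKM in every library, while Slc17a7 lies below the dotted line at 1 cRPKM.

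Of 28 neuropeptide and secretory granule genes, 16 were expressed (57.1%, beside 37.6% of all genes). This was near the share of protein-coding genes, 11898 of 20683. Sst (somatostatin), an inhibitory peptide of interneurons in many regions, was at 242, 244 and 198 cRPKM, the highest of the list and rank 193 of all genes. The granule proteins Chga (169, 175 and 194 cRPKM) and Chgb (106, 112 and 123 cRPKM) and the growth-factor-induced granule peptide Vgf (145, 154 and 169 cRPKM) followed, each highest in line 3. Npy, another peptide of inhibitory neurons, was at 96.8, 78.8 and 65.8 cRPKM. Penk, the precursor of enkephalins, was at 68.7, 66.9 and 62.7 cRPKM and Tac1, the precursor of substance P, at 43.6, 33.2 and 44.4 cRPKM. Both peptides are abundant in the dorsal horn of the spinal cord. Among the 12 interneuron class genes, 9 were expressed (75%). Lamp5 was at 55.1, 46.0 and 43.4 cRPKM and the calcium binding protein Calb2 (calretinin) at 34.97, 26.8 and 39.98 cRPKM, whereas Pvalb (parvalbumin), a marker of fast-spiking cells, was at 4.13, 4.22 and 4.93 cRPKM.

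Among regional genes, Hox genes reached the highest levels. The Hox list had 22 of 39 genes expressed (56.4%), with a median of 6.71 cRPKM, beside 37.6% of all genes. That share was no higher than the one of protein-coding genes (11898 of 20683). Hoxb8 was at 116, 81.9 and 117 cRPKM and was the transcription factor gene with the highest mean on any list. Hoxa5 was at 88.0, 66.3 and 93.3 cRPKM and Hoxb5 at 42.4, 33.1 and 46.1 cRPKM. All 3 were lowest in line 2 and close together in lines 1 and 3. Hoxb7 (40.4, 25.2 and 38.7 cRPKM) and Hoxb6 (38.02, 26.7 and 33.2 cRPKM) were also lowest in line 2 but highest in line 1, and their means differed by less than their spread.

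Expression followed the position of the genes within the clusters. Of the 20 genes numbered 2 to 8, 19 were expressed, and the exception was Hoxc8 at 0.67, 0.80 and 1.26 cRPKM. Of the 4 genes numbered 9, only Hoxb9 was expressed, at 23.8, 19.3 and 26.2 cRPKM, while Hoxa9 was at 0.04, 0.11 and 0.05 cRPKM. Of the 12 genes numbered 10 to 13, only Hoxb13 was expressed, at 1.26, 1.26 and 1.2 cRPKM, and the median of these 12 was 0.048 cRPKM. At the other end, Hoxb1, a gene of a single hindbrain segment, had 1, 0 and 0 counts. Hoxc13 had a mean below 1 cRPKM but reached 1.10 cRPKM in line 2. It was named after its values were seen.

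The 4 clusters differed in level. The Hoxb cluster (chr11:96194316-96368256) summed to 309, 220 and 304 cRPKM with 9 of 10 genes expressed. The Hoxa cluster summed to 151, 116 and 163 cRPKM with 7 of 11 expressed. The Hoxc cluster (chr15:102921103-103036852) came to 44.8, 35.7 and 48.7 cRPKM and the Hoxd cluster (chr2:74668310-74765142) to 34.0, 21.7 and 38.4 cRPKM, each with 3 of 9 expressed. The order Hoxb, Hoxa, Hoxc, Hoxd was the same in each of the 3 libraries. Exons of neighbouring Hox genes overlap, Hoxd3 with Hoxd4 and Hoxc5 with Hoxc10 on the same strand, and Hoxb5 and Hoxa7 with antisense transcripts. Use of the strand in counting is not given in the sources used here, so levels of these genes are uncertain.

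**Figure D2:**
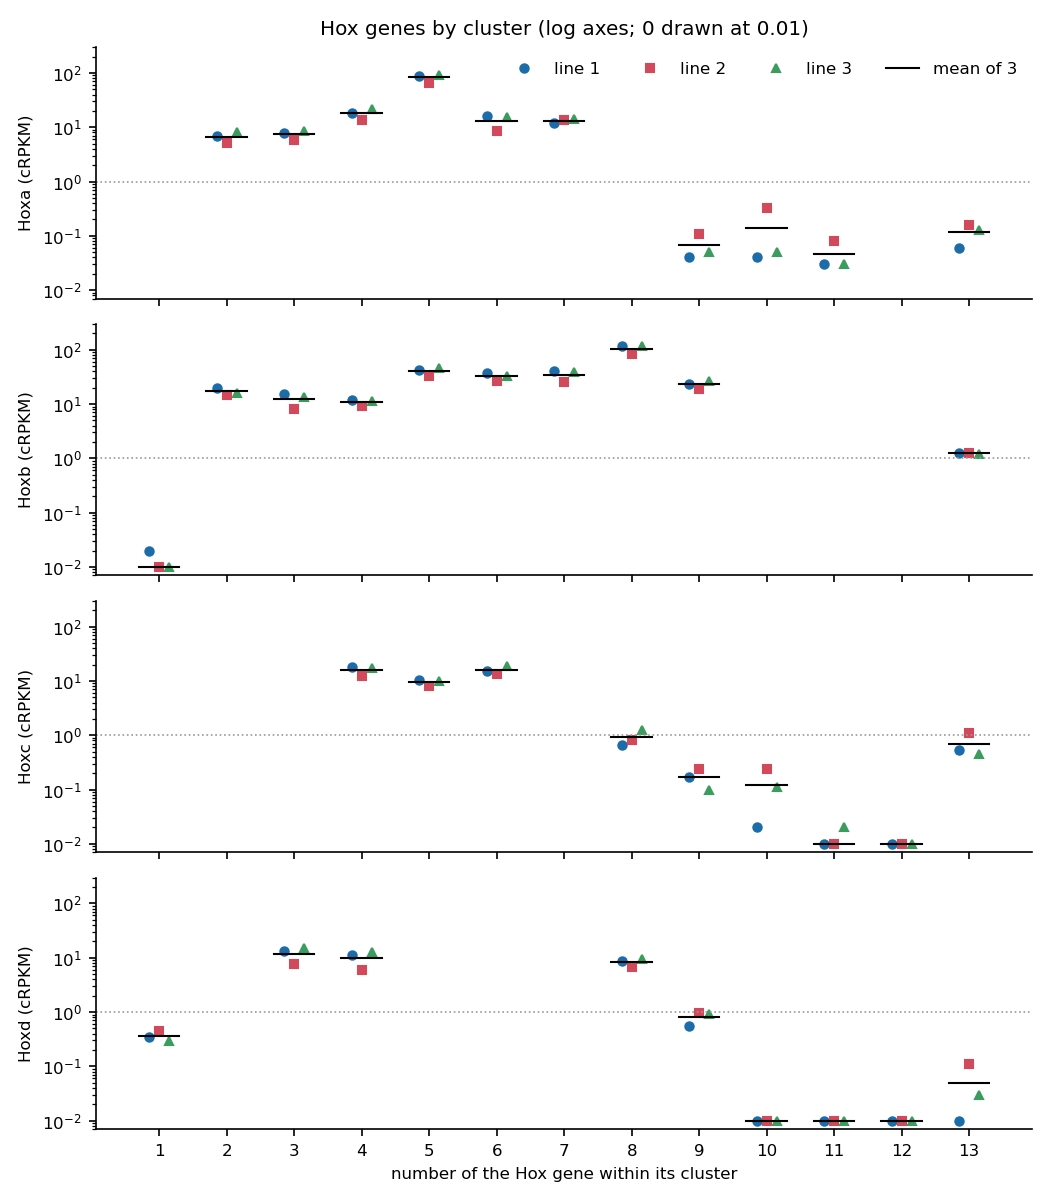
Levels of Hox genes by cluster and gene number in the 3 WT vehicle libraries, on a log cRPKM axis with 0 drawn at 0.01. By their means (black bars), genes numbered 2 to 8 lie above 1 cRPKM with the exception of Hoxc8, and above number 9 only Hoxb13 does.

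Hox partners and spinal or hindbrain factors were expressed at lower levels. Meis2, which binds DNA together with Hox proteins and also marks the subpallium, was at 64.0, 52.1 and 74.7 cRPKM. Lhx1 (20.99, 14.2 and 16.9 cRPKM) and Pax2 (17.0, 13.2 and 12.9 cRPKM) are known from inhibitory interneurons of the dorsal horn. Lbx1, which specifies dorsal spinal interneurons, was at 11.9, 9.66 and 12.1 cRPKM, and Tlx3, a factor of dorsal glutamatergic interneurons, at 6.84, 5.06 and 5.82 cRPKM. Pou4f1, found in sensory and some spinal neurons, was at 10.7, 10.3 and 14.9 cRPKM and its relative Pou4f2 at 7.53, 6.31 and 10.2 cRPKM. In all, 10 of 20 spinal and sensory regulators (50.0%) and 8 of 22 midbrain and hindbrain regulators (36.4%) were expressed, beside 37.6% of all genes. The shares of the cortical and diencephalic lists, given next, lay between these, and all were below the protein-coding share (11898 of 20683). Isl1, a factor of motor and sensory neurons, was at 0.44, 0.12 and 0.69 cRPKM. The hindbrain genes Pax8 (5.65, 3.56 and 3.59 cRPKM) and En1 (3.49, 3.06 and 3.06 cRPKM) were lower than Pax2 in each library.

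Forebrain lists held both absent and expressed genes. Fezf2 and Otx2, of the deep cortex and the anterior brain, had 0 counts in each library, where 3 counts were taken as the limit. Tbr1, a gene of young cortical glutamatergic neurons, was at 0.25, 0.28 and 0.19 cRPKM, Neurod2 at 0.07, 0.15 and 0.13 cRPKM and Emx1 at 0.35, 0.25 and 0.75 cRPKM. On the cortical and hippocampal list, 13 of 30 genes were expressed (43.3%, beside 37.6% of all genes), with a median of 0.75 cRPKM. The highest were Lmo4 (29.7, 29.0 and 30.5 cRPKM), Tle4 (23.1, 20.7 and 23.7 cRPKM), Nr2f1 (17.0, 14.04 and 19.9 cRPKM) and Id2 (8.97, 8.26 and 9.72 cRPKM), which neurons outside the cortex also express. On the subpallial list, 2 of 16 passed (12.5%): Meis2 and Lhx6 (4.93, 5.46 and 4.81 cRPKM), a gene of Sst and Pvalb interneurons. The diencephalic list had 8 of 18 expressed (44.4%), none above a mean of 10 cRPKM, led by Irx2 (5.20, 5.50 and 5.39 cRPKM), Gbx2 (4.88, 4.43 and 3.92 cRPKM) and Irx1 (3.29, 3.54 and 3.14 cRPKM). Of the 10 genes of Cajal-Retzius cells and the cortical hem, 6 were expressed. Calb2, Ebf3 (27.2, 19.7 and 23.2 cRPKM), Lhx1 and Reln (11.96, 9.37 and 13.2 cRPKM) led them, while Trp73, the gene that defines these cells, was at 0.01, 0.02 and 0.04 cRPKM. Emx1, Neurod2 and Slc17a7, all expressed in hippocampal excitatory neurons, were thus below 1 cRPKM in each library.

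Genes of young and of mature neurons were both high. Of 17 genes of growing neurons, 16 were expressed with a median of 140 cRPKM, and of 27 genes of mature neurons, 27 with a median of 102 cRPKM. Of all genes, 37.6% were expressed. By all annotated exons the medians would be 110 cRPKM for the young and 35.1 cRPKM for the mature list. The highest of the first list were Basp1 (501, 436 and 521 cRPKM), Stmn2, Gap43 (408, 321 and 423 cRPKM), proteins of axon growth, and Tubb3. High on the second list were Nefl, Snap25 and the vesicle protein Syp (405, 363 and 459 cRPKM). Tubb3 and Stmn2 were on the young list and the pan-neuronal list alike, and Nefl and Snap25 on the mature and the pan-neuronal list.

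Paired genes that replace each other during development gave a mixed picture. Slc12a5 (KCC2), the chloride extruder that makes GABA inhibitory, was at 97.5, 97.0 and 103 cRPKM. Slc12a2 (NKCC1), the chloride importer of young neurons, was at 5.79, 7.87 and 6.33 cRPKM, so that the log2 ratio of importer to extruder was -3.91 ± 0.25. Rbfox3 (NeuN), a splicing factor of mature neurons, was at 73.1, 59.2 and 66.6 cRPKM against 10.8, 6 and 11.0 cRPKM for Dcx (doublecortin), a log2 ratio of Dcx to Rbfox3 of -2.88 ± 0.37. In these pairs, and in Dlg3 against Dlg4 (PSD-95; -2.40 ± 0.14) and Scn3a against Scn1a (-0.66 ± 0.11), the later gene was higher in all 3 libraries. With annotated exon lengths the ratio of Dlg3 to Dlg4 shrank to -0.70.

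Other pairs lay towards the early gene. Camk2b, the CaMKII subunit that appears earlier in development, was 13.7 times Camk2a in mean level (log2 ratio 3.78 ± 0.31), with Camk2a at 9.79, 8.40 and 7.11 cRPKM. Camk2a marks forebrain excitatory neurons, and the length behind Camk2b was 17.0% of its exons. By all annotated exons the means were 19.7 and 5.53 cRPKM and the log2 ratio 1.84. Nefm exceeded the late neurofilament Nefh by 1.90 ± 0.04 on the log2 scale (1.25 with annotated exon lengths), Map1b exceeded Map1a by 0.52 ± 0.16 and Scn2a exceeded Scn8a, the adult axonal sodium channel, by 0.69 ± 0.10. The decarboxylase pair, Gad1 over Gad2, was not taken as an early and a late gene. It stood at 0.87 ± 0.03 and turned to -0.26 with annotated exon lengths.

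In a further 3 pairs the genes could not be ordered. Grin2b, the NMDA receptor subunit of young synapses, was at 6.95, 6.44 and 7.64 cRPKM and Grin2a, the later one, at 6.42, 5.73 and 7.93 cRPKM. Their log2 ratio was 0.08 ± 0.12 and changed sign in line 3. Glra2 over Glra1, the fetal and adult glycine receptor subunits, gave 0.17 ± 0.18, and Gria2 over Gria1 gave 0.02 ± 0.39 with line 2 on the other side of 0. The Gria2 and Gria1 order also turned when line 1 or line 3 was left out, or when all annotated exons were used as length.

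**Figure D3:**
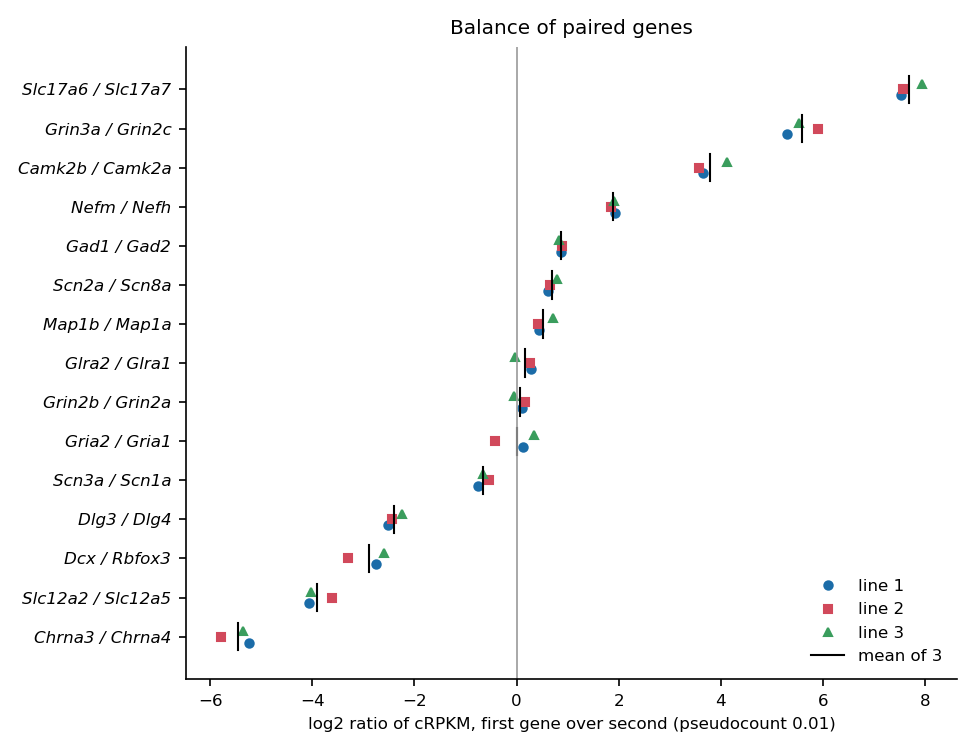
Log2 ratio of the first to the second gene of each pair shown, in each WT vehicle library (1 symbol per line; black bar, mean of 3; pseudocount 0.01 cRPKM). Slc17a6/Slc17a7 lies farthest above 0 at 7.68 and Chrna3/Chrna4 farthest below at -5.46, while Grin2b/Grin2a and Gria2/Gria1 straddle 0.

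All 11 AMPA receptor genes with a value were expressed, beside 37.6% of all genes. Cnih2, an auxiliary subunit that slows channel closing, was highest at 117, 100.3 and 102 cRPKM. The pore subunits Gria4 (43.2, 30.1 and 46.2 cRPKM), Gria2 (36.7, 21.4 and 41.4 cRPKM) and Gria1 (33.6, 28.5 and 32.8 cRPKM) overlapped in range, and Gria3 was lower (15.2, 11.7 and 16.2 cRPKM). Gria4 was above Gria2 and Gria1 in each library. Gria2 makes the channel impermeable to calcium. Of the auxiliary TARP proteins, Cacng4 (43.6, 43.3 and 42.1 cRPKM) and Cacng2 (36.0, 28.0 and 36.4 cRPKM) led. Cacng8 is NA in the deposited tables and has no value here.

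NMDA receptors were led by their obligatory subunit. Grin1 was at 114, 120 and 120 cRPKM, well above the subunits it pairs with. Grin2d, known from the spinal cord and from interneurons, was at 14.3, 13.7 and 13.03 cRPKM and Grin3a at 11.5, 10.8 and 12.5 cRPKM, both above Grin2b and Grin2a in each library. Grin2c, the cerebellar subunit, was at 0.28, 0.17 and 0.26 cRPKM, a log2 ratio of Grin3a to Grin2c of 5.59 ± 0.31. All 9 kainate and delta receptor genes were expressed, led by Grik5 (62.0, 47.6 and 61.0 cRPKM) and by the auxiliary protein Neto2 (38.4, 30.8 and 42.4 cRPKM), with Grik3 at 22.0, 18.6 and 19.3 cRPKM and Neto1 at 17.5, 12.2 and 19.98 cRPKM. Of 8 metabotropic glutamate receptors, 7 were expressed (87.5%, beside 37.6% of all genes). Grm5, coupled to phospholipase C, was at 25.4, 22.0 and 26.3 cRPKM, Grm7 at 20.3, 16.3 and 21.8 cRPKM, Grm4 at 17.0, 16.1 and 17.4 cRPKM and Grm3 at 10.1, 7.90 and 12.9 cRPKM. Grm6, the receptor of retinal bipolar cells, had 1, 1 and 0 counts.

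Receptors for both inhibitory transmitters were expressed. Of 19 GABA-A subunits, 13 were expressed (68.4%, beside 37.6% of all genes). Gabra3 was at 44.1, 37.6 and 51.8 cRPKM, with the highest mean of the list. Gabra5, a subunit of receptors outside the synapse, was at 28.3, 20.7 and 35.4 cRPKM, Gabra2 at 14.5, 9.91 and 17.4 cRPKM, and Gabra6, of cerebellar granule cells, had 0 counts. Gabra3, Gabra5 and Gabra2 were each lowest in line 2. Gabbr1, a GABA-B receptor, was at 124, 117 and 142 cRPKM and its partner Gabbr2 at 36.8, 34.9 and 44.1 cRPKM. Among glycine receptors, the beta subunit Glrb was at 94.7, 80.9 and 108 cRPKM, Glra2 at 17.6, 12.7 and 19.5 cRPKM and Glra1 at 14.5, 10.6 and 19.99 cRPKM. Gphn (gephyrin), which anchors glycine and GABA-A receptors, was at 33.1, 25.9 and 35.4 cRPKM.

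Receptors for modulatory transmitters were expressed in shares nearer to the 37.6% of all genes, and below that of protein-coding genes (11898 of 20683). Of 21 acetylcholine receptor genes, 9 were expressed (42.9%), led by Chrna4 (27.3, 29.9 and 32.7 cRPKM) and Chrnb2 (17.4, 16.6 and 19.6 cRPKM), which form the main nicotinic receptor of the brain. Chrna3, of autonomic ganglia, was far lower than Chrna4 (log2 ratio -5.46 ± 0.29). The muscarinic receptors Chrm2 (8.71, 7.35 and 8.68 cRPKM) and Chrm3 (7.98, 8.08 and 8.13 cRPKM) were expressed, and Chrm1, of cortex and hippocampus, had 1, 1 and 0 counts. Of 31 monoamine receptors, 15 were expressed (48.4%). Htr2c, a serotonin receptor, was at 30.7, 21.5 and 33.7 cRPKM, Drd2, a dopamine receptor, at 14.8, 14.04 and 12.1 cRPKM, Htr7 at 13.5, 10.4 and 13.8 cRPKM and Adra1b at 9.73, 9.37 and 10.5 cRPKM. Receptors for serotonin, dopamine and noradrenaline were thus present although the genes that make these transmitters were not expressed.

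Peptide, purine and growth factor receptors followed. Of 19 opioid, cannabinoid and purine receptors, 8 were expressed (42.1%): Oprl1, the nociceptin receptor, was at 22.8, 19.3 and 23.0 cRPKM, Adora1, an adenosine receptor, at 19.8, 24.0 and 17.8 cRPKM and Cnr1, the neuronal cannabinoid receptor, at 18.3, 14.7 and 23.1 cRPKM. P2rx4, a channel gated by ATP, was at 3.37, 7.07 and 2.85 cRPKM, highest in line 2. Of 9 neurotrophin genes, 7 were expressed (77.8%, beside 37.6% of all genes). The BDNF receptor Ntrk2 was at 33.1, 31.8 and 39.9 cRPKM and Ntrk3 at 7.48, 5.51 and 8.17 cRPKM, Sort1 (sortilin) at 23.2, 24.6 and 25.6 cRPKM and Bdnf itself at 3.61, 3.63 and 4.23 cRPKM.

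**Figure D4:**
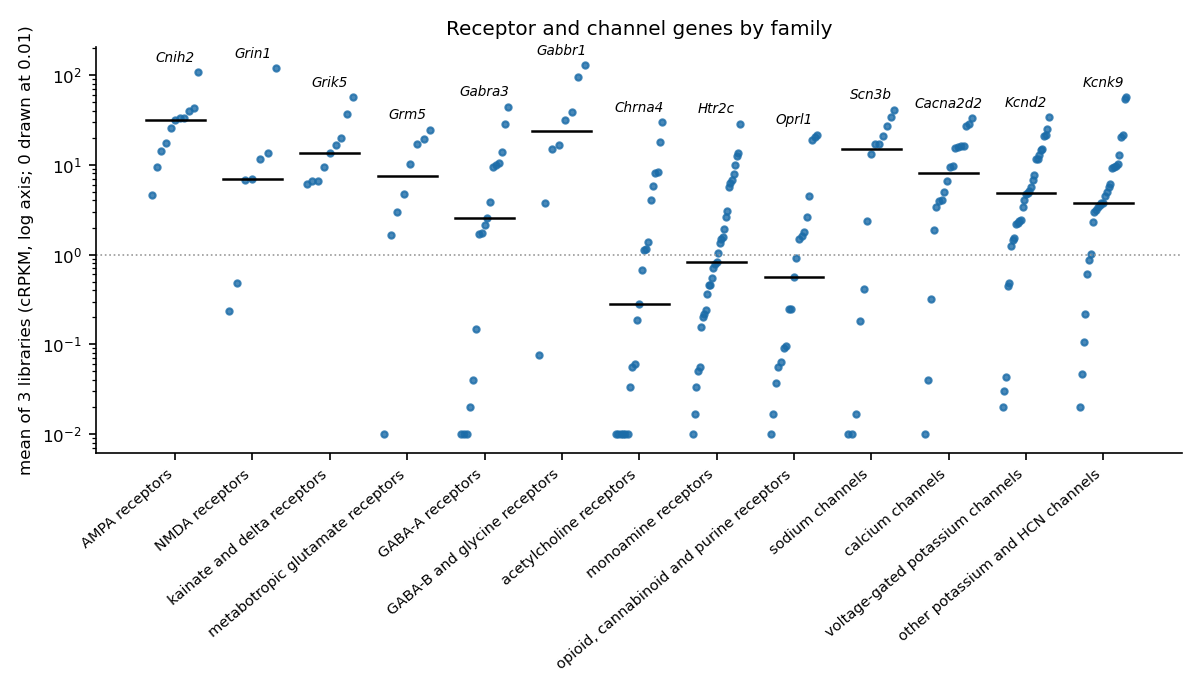
Mean cRPKM over the 3 WT vehicle libraries of genes in the receptor and channel lists (points, log axis), with the median of the whole list as a bar and the highest gene shown named. The AMPA receptor list has a median of 31.6 cRPKM and the acetylcholine receptor list 0.28 cRPKM.

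Channels for firing were broadly expressed. Of 14 sodium channel genes, 9 were expressed (64.3%, beside 37.6% of all genes), among them the auxiliary subunits Scn3b (43.9, 33.3 and 46.1 cRPKM) and Scn2b (33.5, 29.9 and 39.6 cRPKM). The pore subunits were Scn2a (26.9, 23.4 and 31.5 cRPKM), Scn1a (22.3, 15.1 and 24.9 cRPKM), Scn8a (17.6, 14.9 and 18.2 cRPKM) and Scn3a (13.1, 10.3 and 15.8 cRPKM). Ranges of neighbours overlapped between lines, but the order was the same in each library. Scn10a, of nociceptors, had 0 counts. Of 18 calcium channel genes, 15 were expressed (83.3%), led by the auxiliary subunits Cacna2d2 (34.5, 27.5 and 37.2 cRPKM), Cacnb3 (31.2, 26.0 and 28.1 cRPKM) and Cacnb1 (27.4, 25.1 and 27.9 cRPKM). The P/Q-type and N-type pores that trigger release, Cacna1a (17.0, 13.2 and 17.9 cRPKM) and Cacna1b (17.0, 13.6 and 17.4 cRPKM), were at the same level within their spread.

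Of 30 voltage-gated potassium channel genes, 25 were expressed (83.3%, beside 37.6% of all genes). Kcnd2, of the transient A-type current, was at 33.0, 29.4 and 40.2 cRPKM, Kcnc4 at 26.0, 23.3 and 26.5 cRPKM and Kcna6 at 20.2, 20.6 and 23.4 cRPKM. Of 27 other potassium and HCN channels with a value, 21 were expressed (77.8%). Kcnk9, a leak channel, was at 47.2, 41.3 and 81.2 cRPKM, but the length behind its values was 9.43% of its exons. By all annotated exons its mean would be 5.33 cRPKM. Hcn2, a pacemaker channel, was at 50.9, 57.0 and 55.8 cRPKM, Hcn3 at 20.99, 17.2 and 23.6 cRPKM and the leak channel Kcnk1 at 19.2, 25.3 and 20.1 cRPKM. Kcnn1 has no value in the tables.

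All 25 vesicle release genes with a value were expressed (beside 37.6% of all genes), with a median of 65.9 cRPKM. Vamp2 (553, 506 and 589 cRPKM) and Snap25 are 2 of the SNARE proteins that fuse vesicles, and Syp is a protein of the vesicle membrane. Cplx1 (complexin), a clamp of fusion, was at 322, 288 and 344 cRPKM. Summed over the list, the release machinery came to 3511 cRPKM in line 1 and 2944 cRPKM in line 2. Rims1 has no value.

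Markers of other cell types were measured to see which cells the cultures held beside neurons. Vim (vimentin), of progenitors, glia and fibroblasts, was at 32.3, 99.4 and 13.9 cRPKM, and Col1a1, a fibrillar collagen of connective tissue cells, at 25.2, 76.8 and 6.47 cRPKM. Both were highest in line 2 and lowest in line 3, and their SD was close to their mean (48.5 ± 45.0 and 36.2 ± 36.4 cRPKM). The mesenchymal list had 13 of 15 genes expressed (86.7%, beside 37.6% of all genes) and summed to 346, 631 and 259 cRPKM. Thy1 (201, 197 and 206 cRPKM), which neurons express as well, held much of that sum, and without it the list came to 145, 434 and 53.1 cRPKM. Col3a1 (24.1, 62.7 and 7.10 cRPKM) followed Col1a1.

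Epithelial and endodermal genes had the widest spread. The keratins Krt8 (11.8, 118 and 4.87 cRPKM) and Krt18 (11.97, 101 and 4.36 cRPKM), which form filaments of simple epithelia, led the list, followed by Gata4 (4.02, 30.1 and 2.49 cRPKM), a factor of heart and extraembryonic endoderm, and Krt19 (3.49, 31.4 and 0.86 cRPKM). The list had 10 of 12 genes expressed in the mean (83.3%, beside 37.6% of all genes) and summed to 44.0, 370 and 18.9 cRPKM. Its median was 2.645, 19.8 and 1.055 cRPKM, so the means rested largely on line 2. Alb, the albumin of hepatocytes, was at 0.05, 0 and 0.03 cRPKM. The inhibitor libraries of the same lines summed to 77.7, 81.2 and 273 cRPKM, highest in line 3. Dividing cell genes moved in the same way: Top2a (2.48, 24.1 and 0.98 cRPKM), which untangles replicated DNA, and Ccnb1 (2.31, 19.5 and 0.94 cRPKM), the mitotic cyclin, led a list that summed to 22.3, 114 and 14.5 cRPKM, with Pcna at 7.32, 8.35 and 6.14 cRPKM and Birc5 at 2.71, 14.6 and 1.85 cRPKM. Pcna serves DNA repair as well as replication and was nearly level.

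Glial genes were less uniform. Astrocyte markers summed to 293, 322 and 235 cRPKM with 10 of 12 expressed (83.3%, beside 37.6% of all genes). Aldoc (140, 138 and 152 cRPKM), a glycolytic enzyme that neurons express too, and Sparcl1 (53.7, 56.8 and 49.2 cRPKM) were level across lines. Gfap, the filament of astrocytes, was at 73.0, 66.0 and 15.9 cRPKM, low in line 3 alone, and the gap junction gene Gja1 was at 5.47, 34.7 and 2.44 cRPKM, high in line 2 alone. Without Aldoc the list came to 154, 185 and 83.6 cRPKM. Oligodendrocyte genes were low: Mbp was at 4.74, 3.85 and 5.63 cRPKM, Cnp at 4.30, 5.28 and 4.21 cRPKM and Sox10 and Mag had 0 counts. Pdgfra, which precursors share with mesenchyme, was at 2.98, 22.7 and 1.70 cRPKM. Progenitor genes summed to 77.4, 147 and 31.1 cRPKM, mostly Vim and Fabp7 (36.5, 31.6 and 11.5 cRPKM). Nes (nestin) was at 0.97, 3.49 and 0.53 cRPKM and Sox1, of neural progenitors, at 0.06, 0.06 and 0.03 cRPKM.

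No gene on the lists of further cell types reached a mean of 10 cRPKM. None of the 11 microglia genes was expressed, and P2ry12, C1qa and Trem2 had 0 counts. Of 8 endothelial genes, 3 were expressed (37.5%, beside 37.6% of all genes). These were Flt1 (1.18, 11.4 and 0.49 cRPKM), Tek (1.10, 9.71 and 0.83 cRPKM) and Cdh5 (0.91, 4.04 and 1.12 cRPKM), while Cldn5, which defines brain endothelium, had 0 counts. The choroid plexus list had 4 of 8 expressed (50.0%), led by Clic6 (1.66, 15.7 and 1.2 cRPKM) and Ttr (1.38, 11.9 and 1.45 cRPKM), and the muscle list 1 of 10 (10.0%), Acta1 (0.70, 4.31 and 0.74 cRPKM). The neural crest and Schwann list had 4 of 8 expressed (50.0%), led by Tfap2a at 3.40, 2.86 and 4.29 cRPKM. Of 12 pluripotency genes, 4 were expressed (33.3%), and the list summed to 10.0, 36.3 and 7.59 cRPKM. Klf4 (2.80, 14.7 and 1.82 cRPKM) and Dppa5a (1.99, 7.27 and 1.29 cRPKM) led it, and Lin28a and Esrrb had means of 3.52 and 3.49 cRPKM. Pou5f1 had 3, 9 and 0 counts, Nanog 3, 3 and 0 counts and Dppa3 0 counts.

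**Figure D5:**
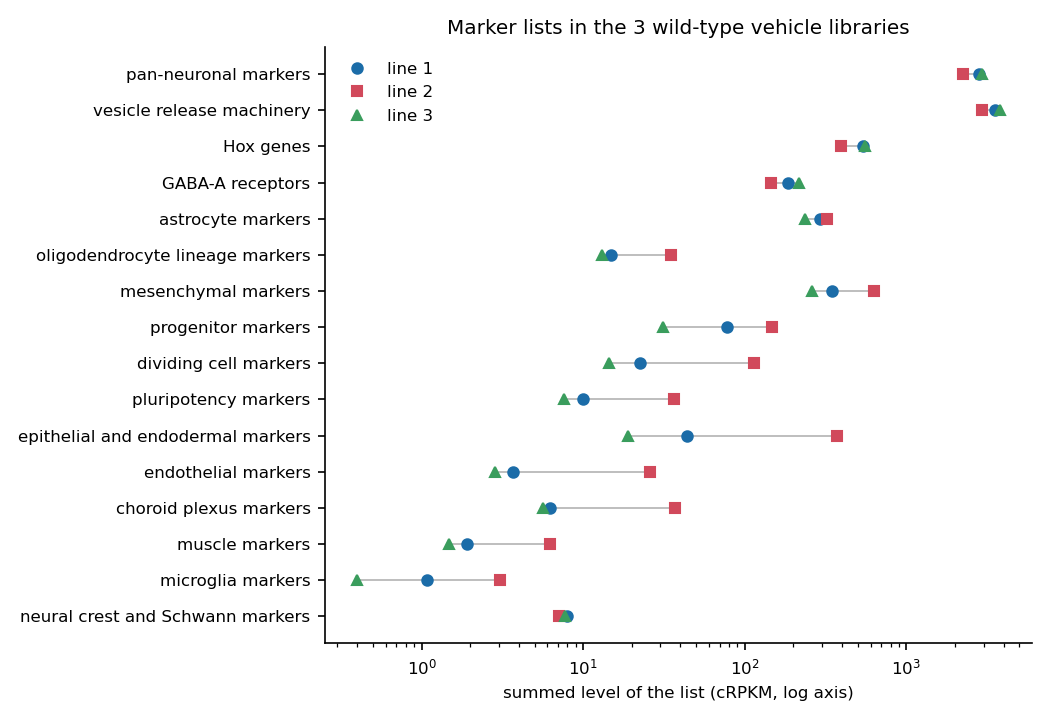
Summed cRPKM of each list of cell type markers in the 3 WT vehicle libraries (log axis, 1 symbol per line). Pan-neuronal markers lie between 2231 and 2936 cRPKM, while epithelial and endodermal markers range from 18.9 cRPKM in line 3 to 370 cRPKM in line 2.

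The spread between the lines was read gene by gene as the ratio of the highest to the lowest library. Over 12292 genes its median was 1.29 (quartiles 1.15 and 1.57), and 71.2% of genes lay under 1.5. In 1710 genes (13.9%) the highest library was at least 2 times the lowest. Line 2 was the highest in 1278 of these 1710 (74.7%), line 1 in 265 and line 3 in 167. Line 3 was the lowest in 1193. The limit of 1 cRPKM was set on the mean of 3 libraries, so genes high in 1 library alone could enter these counts. Without line 2, 156 of 11897 genes had a ratio of 2 or more (1.31%), and the median ratio was 1.08. The biological coefficient of variation, the relative spread of true levels between libraries that edgeR estimates, was 0.347 over the 3 libraries and 0.109 without line 2.

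All 10 epithelial and endodermal genes that could be read had a ratio of 2 or more, as did 9 of 10 dividing cell genes, 11 of 13 mesenchymal genes and 7 of 10 astrocyte genes, beside 13.9% of all genes. None of the pan-neuronal markers did. A gene could pass the limit of 1 cRPKM through line 2 alone, which favours a wide ratio. The counts therefore describe the lists and are no test. Line 2 was the lowest library in 12 of 12 pan-neuronal markers, 23 of 27 genes of mature neurons and 22 of 25 vesicle release genes, but in 3 of 5 expressed NMDA receptor genes and 3 of 9 expressed acetylcholine receptor genes. Snap25, at 321 against 540 and 587 cRPKM, was among the lower ones, while Slc12a5 (97.5, 97.0 and 103 cRPKM) was nearly level and Grin1 (114, 120 and 120 cRPKM) was lowest in line 1. The part of the non-neuronal genes in these lower values was not tested.

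The 20 genes with the widest ratio, among those at a mean of at least 5 cRPKM, were all highest in line 2 and lowest in line 3. That threshold was set on the mean of 3 libraries, so a gene high in 1 library alone could pass it. Ankrd1, Cdh1 and Emilin3, among others, passed through line 2, so the selection itself favoured such genes. They were Ankrd1, H19, Car4, Cldn6, Krt19, Acta2, Cdh1, Ifitm3, Top2a, Krt8, Ccn1, Emilin3, St14, Myl9, Krt18, Lox, Ccnb1, Anxa3, Cryab and Tagln. Ankrd1, a nuclear ankyrin protein, was at 1.29, 22.8 and 0.33 cRPKM, a ratio of 68.9. Cldn6, a tight junction protein of embryonic epithelia, was at 3.52, 41.2 and 1.07 cRPKM, and Cdh1 (E-cadherin), which joins epithelial cells, at 1.61, 19.8 and 0.68 cRPKM. The imprinted noncoding RNA H19 was at 4.32, 25.8 and 0.50 cRPKM. Acta2, Myl9 and Tagln belong to the contractile apparatus of smooth muscle and myofibroblasts, and Acta2 was at 5.40, 31.9 and 0.94 cRPKM. Ccn1, a secreted matrix protein, was at 13.7, 147 and 6.15 cRPKM.

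Ankrd1 and Ccn1 are textbook targets of the coactivator YAP, which works with TEAD factors, and their promoters are shown for the TEAD motif they carry. The motif was chosen after these values were seen, and the 20 genes were picked by the same values. The counts of promoters below are therefore a description, and a link to YAP was not tested. It was searched as GGAATG, or CATTCC on the opposite strand, in RefSeq promoters (GRCm38.p6) from 250 bases before to 50 bases after the annotated start. Of the 20 genes, 11 had a promoter in the table and 4 of these held the motif (Acta2, Ankrd1, Ccn1 and Cldn6), beside 14.7% of all 32851 promoters and 11.3% of the 9094 promoters of genes at a mean of at least 5 cRPKM. The CArG box, the motif of serum response factor, was searched too, and 1 of the 11 held it (Myl9), beside 1.63% of all promoters. The promoter of Ankrd1 is chr19:36119795-36120094 and that of Ccn1 is chr3:145649936-145650235, both on the minus strand. Capitals mark the motif, with 2 matches in Ankrd1 and 1 in Ccn1. A match describes the letters and does not show a bound site.
Ankrd1: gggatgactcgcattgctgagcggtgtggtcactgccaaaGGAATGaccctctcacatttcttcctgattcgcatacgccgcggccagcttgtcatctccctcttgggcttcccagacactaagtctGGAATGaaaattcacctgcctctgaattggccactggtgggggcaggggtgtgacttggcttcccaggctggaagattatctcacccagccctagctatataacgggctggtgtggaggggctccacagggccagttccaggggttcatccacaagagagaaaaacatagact
Ccn1: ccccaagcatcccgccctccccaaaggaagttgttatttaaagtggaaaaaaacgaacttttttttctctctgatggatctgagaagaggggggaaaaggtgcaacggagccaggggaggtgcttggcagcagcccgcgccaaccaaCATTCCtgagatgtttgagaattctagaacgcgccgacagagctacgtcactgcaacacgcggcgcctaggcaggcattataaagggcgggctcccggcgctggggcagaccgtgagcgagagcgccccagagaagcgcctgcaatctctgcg

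The inhibitor libraries served as a second reading of each line. Among the 1278 genes highest in line 2 in vehicle, 1254 were highest in line 3 in the inhibitor libraries and 10 in line 2. Over the 1710 wide genes the same line was highest in both sets in 186 (10.9%), and over all 12292 genes in 2470 (20.1%). Of the 20 widest genes, 19 were highest in line 3 in the inhibitor libraries, and H19, at 3.31, 2.96 and 2.70 cRPKM there, was the exception. Krt8 stood at 22.7, 23.9 and 89.8 cRPKM in the inhibitor libraries and Vim at 37.1, 32.1 and 123 cRPKM. The high level therefore did not stay with the labelled line. Sparc, a matrix protein, had the largest absolute difference in cRPKM between libraries of any nuclear gene at a mean of at least 100 cRPKM, with 247, 1436 and 147 cRPKM in vehicle and 410, 401 and 1224 cRPKM in the inhibitor libraries. Sparc was singled out after its values were seen.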

How the data were processed

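The authors deposited 1 table per library with a whole-number read count and a cRPKM value (a corrected RPKM, with no account of the correction in the labels) for 36902 genes, of which 3342 are NA. The build is mm10 per the submitters' processing notes. Aligner, annotation, filters and strand setting are not given in the sources used here. In 2688 genes with over 2000 counts per library, the ratio of count to cRPKM followed the library totals within 0.122%. Symbols, coordinates and biotypes came from GENCODE M21 (GRCm38), which matched 33371 identifiers.

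Genes were ranked by mean cRPKM over the 3 libraries with Python 3.11.15 and pandas 2.3.3, and 44 lists and 17 gene pairs were described by counts, medians, sums and log2 ratios with a pseudocount of 0.01 cRPKM. The members and lists were chosen with earlier results of these data known. Of 634 listed genes 630 had a value (Cacng8, Kcnn1 and Rims1 are NA, Drgx had no match) and 387 were expressed, and exons of 192 overlap another gene. The spread was estimated with edgeR 4.0.16 in R 4.3.3 (common dispersion of an intercept-only design, TMM factors, filterByExpr, 14044 genes), checked on simulated counts, with the size factors of DESeq2 1.42.0 as an alternative. Named are the 20 highest genes, the 20 widest and 10 steadiest, the 4 highest members of each list, all pair genes, the given markers, the 10 highest transcription factor genes of the lists and Daam1. Some genes that this rule names are not reported here and are not drawn, but they stay in the counts, sums and medians of their lists. Other genes named were chosen after their values were seen. No groups were compared and no test of a difference was run. To see whether a library had been deposited under more than 1 label, counts of the 3 WT vehicle libraries were set against counting noise alone. No 2 of these 3 were that alike, so each counts as 1 sample. The inhibitor libraries were not checked in this way.

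Depth sets the precision of low genes, and counts of 3 or fewer were taken as the floor, for counting error only.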

Additional observations from a re-analysis of the deposited data

How the results depend on the processing

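No paired analysis was possible because only 1 group was described and no test was run. The number of expressed genes (12616) ran from 8879 at a threshold of 5 cRPKM to 13905 with values rescaled to the same total in each library, as in TPM, and from 12323 to 12754 when each library was left out in turn. At 5 cRPKM, 17 lists instead of 27 had a median past the threshold. Of the 100 highest genes, 74 stayed among the first 100 when all annotated exons were used as length, an alternative chosen after seeing the data, and 92 to 95 when a library was left out. Leaving out each library, the biological coefficient of variation ranged from 0.109 to 0.426 and the number of genes with a ratio of 2 or more from 156 to 1654, the lowest value of each without line 2. With annotated exon lengths the log2 ratio of Gad1 to Gad2 turned to -0.26 and that of Gria2 to Gria1 to -0.43. Without single libraries the latter ranged from -0.14 to 0.23. With these lengths a further 14 of the 17 ratios moved by more than their spread, as did 23 of 44 list medians. Depth limits genes near 0, such as Hoxb1.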

Other observations

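Long noncoding RNAs and the steadiest genes belong to no list above. By their annotated biotype 463 noncoding genes were expressed, 214 of them lincRNAs. The highest was Gm42418, at 403, 490 and 387 cRPKM in lines 1, 2 and 3. Gm29084, annotated as antisense, was at 159, 402 and 152 cRPKM and the lincRNA Gm45322 at 130, 268 and 132 cRPKM, both highest in line 2. Gas5, a host of small nucleolar RNAs, was at 96.6, 98.1 and 72.6 cRPKM. 1700020I14Rik was at 82.7, 61.5 and 101 cRPKM, and Peg13, an imprinted RNA expressed from the paternal allele, at 77.4, 67.4 and 92.4 cRPKM. Both were lowest in line 2. The nuclear RNA Malat1 was at 48.8, 33.6 and 45.2 cRPKM.

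At the other end of the spread, 10 genes at a mean of at least 10 cRPKM differed least between the lines: Ubr2, Cyb5r4, Zbtb14, Ccdc92, G6pdx, Ptges3, Kctd3, Rab35, Haus8 and Trim8. Ubr2, a ubiquitin ligase, was at 11.3 cRPKM in all 3 libraries, and G6pdx, the first enzyme of the pentose phosphate pathway, at 10.9, 10.8 and 10.8 cRPKM. Ptges3, a co-chaperone, was at 102, 103 and 102 cRPKM. Nid2 and Tinagl1, both chosen after their values were seen, followed the order of the widest genes. Nid2, a basement membrane protein, was at 6.70, 55.6 and 3.05 cRPKM and Tinagl1 at 29.5, 309 and 18.1 cRPKM, and both were highest in line 3 in the inhibitor libraries (13.2, 12.1 and 47.0 cRPKM for Nid2).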
